A study of Drosophila melanogaster with 4 samples.

Results

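The genes described here are 10 regulators and products of the endoderm and the blood cells of *Drosophila melanogaster*: *srp*, *GATAe*, *gcm*, *gcm2*, *Pvr*, *crq*, *Hml*, *NimC1*, *lz* and *PPO1*. They were listed by name, with earlier results of these data known. Each had 1 probe set, so they make up 10 of the 13966 gene probe sets on the arrays. Transcripts were measured in whole embryos, on 2 one-colour Affymetrix arrays for each of 2 genotypes. The mutant embryos came from *how* germline-clone females, a design meant to remove the HOW supplied by both the mother and the embryo. Homozygotes were told from their siblings by a fluorescent balancer under the microscope. The wild-type embryos were of the yw stock, and the labels neither name the *how* allele nor say whether the stocks share a genetic background. Both groups were collected over 2 h and aged for 3 h at 25 °C, which gives embryos 3 to 5 h after egg laying. Each array carried RNA pooled from 5 preparations of about 100 embryos, so the spread between single embryos was not measured.

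HOW (held out wings) is an RNA-binding protein of the STAR family, known for its work in mesoderm, muscle, tendon and glia. In the fly embryo the endoderm arises at both ends of the blastoderm and forms the midgut, while the first blood cells arise in the head mesoderm. Both tissues need the GATA factor Serpent, encoded by *srp*. Blood cell precursors then become plasmatocytes, the wandering phagocytes that also lay down basement membrane, or crystal cells, which carry the enzymes of melanisation.

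Of the 10 genes, 6 had signals above background on all 4 arrays, 3 were at background on all 4, and *PPO1* lay close to it. None of the 7 that were bright enough to be tested passed the test between mutant and wild type. The genes above background were the regulators *srp*, *GATAe*, *gcm* and *gcm2* and the receptors *Pvr* and *crq*. The genes at background were *lz*, *Hml* and *NimC1*. They are 30% of the 10, against 36.3% of all gene probe sets, so their number does not set the 10 apart. The background level was set on each array as the 90th percentile of 128 probe sets of odorant, gustatory and ionotropic receptor genes, which serve sensory neurons of larvae and adults. It was a signal of 57.4 and 51.1 on the mutant arrays and 46.7 and 60.8 on the wild-type arrays. By construction most receptor probe sets lie under it, and 85.2% did so on all 4 arrays, against 36.3% of all gene probe sets. Since RNA came from whole embryos, fewer cells of a type and less RNA per cell cannot be told apart in any value below.

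**Figure D1:**
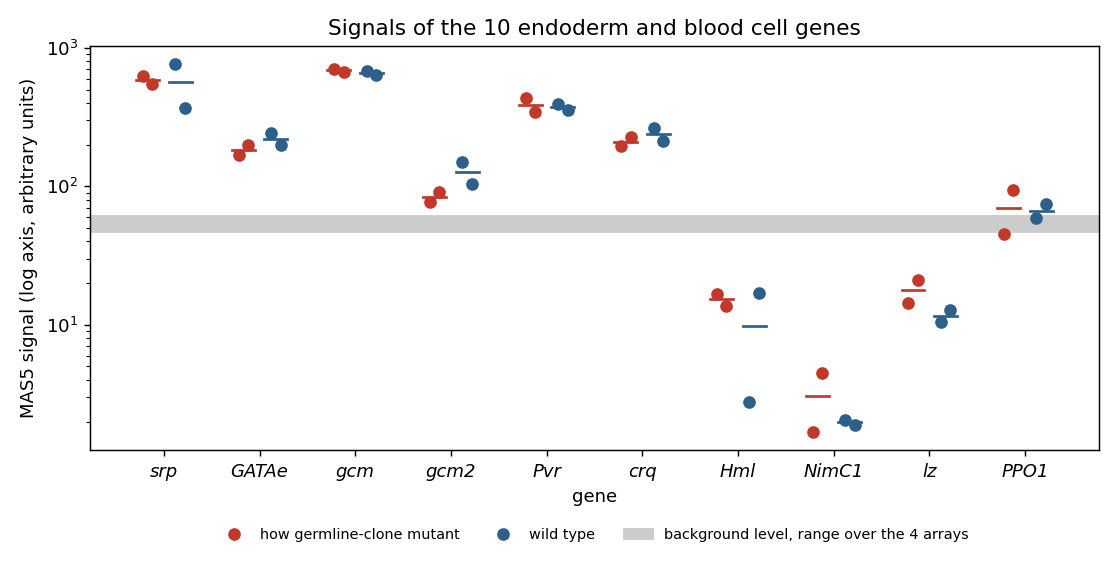
MAS5 signal (log axis, arbitrary units) of the 10 genes, with a point for each array, mutant left of wild type, and a bar at each group's mean. The grey band spans the background levels of the 4 arrays, 46.7 to 60.8; *lz*, *Hml* and *NimC1* lie under it on every array and *PPO1* lies across it.

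The endoderm factors are described first. *srp*, whose GATA factor specifies endoderm, fat body and blood cells, had signals of 626 and 546 on the mutant arrays, against 761 and 368 on the wild-type arrays. Both mutant values lay between the wild-type values, which differed 2.07-fold from each other. That spread was as large or larger in 4.12% of the probe sets tested. The log2 difference of mutant minus wild type was 0.14 ± 0.31 (SE, n = 2 each; limma adjusted p = 0.873). It was 0.67 without wild-type array 1 and -0.38 without wild-type array 2, so its direction rests on which of them is kept.

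*GATAe*, which encodes a GATA factor that maintains endoderm and midgut identity after *srp*, had signals of 168 and 198 in the mutant, against 243 and 198 in wild type. The upper mutant array and the lower wild-type array nearly coincided, so the groups were barely separate. The log2 difference was -0.27 ± 0.21 (SE, n = 2 each; limma adjusted p = 0.607), and leaving out each array in turn gave -0.42 (without wild-type array 2) to -0.12 (without wild-type array 1). *srp* and *GATAe* stand side by side on chromosome arm 3R, with no protein-coding gene between them in the RefSeq table of Release 6 plus ISO1 MT. The neighbour on the other side of *GATAe* is *pnr*, the GATA gene of the dorsal ectoderm. The signals of *pnr* were 403 and 401 in the mutant, against 309 and 301 in wild type, with a log2 difference of 0.40 ± 0.16 (SE, n = 2 each) that did not pass (limma adjusted p = 0.269).

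The *gcm* pair came next. *gcm* encodes a zinc-binding transcription factor that directs blood cell precursors to the plasmatocyte fate and neural precursors to glia. Its signals were 710 and 672 in the mutant, against 680 and 638 in wild type. The 4 arrays interleaved, and of the 7 genes tested this one was measured most tightly. The log2 difference was 0.07 ± 0.14 (SE, n = 2 each; limma adjusted p = 0.870), with a 95% interval of -0.26 to 0.40.

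*gcm2*, the paralogue that acts with *gcm* in both lineages, had signals of 76.5 and 91.8 in the mutant, against 149.7 and 104 in wild type. Both mutant arrays lay below both wild-type arrays, and all 4 lay above background, the lowest at 1.33 times its array's level. The log2 difference was -0.58 ± 0.30 (SE, n = 2 each), furthest from 0 among the 7 genes. It did not pass (limma adjusted p = 0.402). Its 95% interval ran from -1.27 to 0.12, so a fall of more than 2-fold was not distinguishable from no change with these arrays. Leaving out each array in turn gave -0.84 to -0.31, with the smallest size without wild-type array 1, the brightest of the 4. *gcm* and *gcm2* lie near each other on arm 2L with 2 protein-coding genes between them, *CG3841* and *CG4382*.

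Both receptors were above background throughout. *Pvr* encodes the receptor tyrosine kinase related to the vertebrate PDGF and VEGF receptors, on which the migration and survival of embryonic blood cells depend. Its signals were 434 and 342 in the mutant, against 393 and 354 in wild type, and both wild-type values lay between the mutant values. The log2 difference was 0.05 ± 0.18 (SE, n = 2 each; limma adjusted p = 0.937), with a 95% interval of -0.37 to 0.47. The difference ran from -0.12 without mutant array 1 to 0.22 without mutant array 2. *crq* encodes Croquemort, a receptor of the CD36 family with which plasmatocytes take up dying cells. Its signals were 195 and 227 in the mutant, against 262 and 214 in wild type, so the arrays of the groups overlapped. The log2 difference was -0.17 ± 0.21 (SE, n = 2 each; limma adjusted p = 0.759), and leaving out each array in turn gave -0.32 (without wild-type array 2) to -0.02 (without wild-type array 1).

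The remaining blood cell genes gave little or no signal. *Hml*, the gene for Hemolectin, a clotting protein of plasmatocytes, had signals of 16.8 and 13.7 in the mutant, against 2.75 and 16.8 in wild type. *NimC1*, which encodes a Nimrod receptor for the uptake of bacteria, had 1.68 and 4.46 in the mutant, against 2.05 and 1.90 in wild type. For both genes the groups overlapped and every array was below background, the highest at 0.293 times the level for *Hml* and 0.0873 times for *NimC1*. No fold change is given for either.

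In the crystal cell branch, *lz*, which encodes the RUNX factor that directs crystal cell fate, had signals of 14.5 and 21.1 in the mutant, against 10.4 and 12.7 in wild type. The mutant arrays lay above the wild-type arrays, but all 4 lay at most at 0.414 times the background level, where an order is not a measure of transcript. *PPO1* encodes a prophenoloxidase, the precursor of the melanising enzyme of crystal cells. Its signals were 45.4 and 93.7 in the mutant, against 58.8 and 74.4 in wild type. Mutant array 1 fell below its background level and the other 3 arrays stood at 1.22 to 1.84 times theirs. With the level set at the 95th percentile of the receptor probe sets, 3 of the 4 arrays of *PPO1* and 1 of *gcm2* (mutant array 1) fell below it. The log2 difference of *PPO1* was -0.02 ± 0.44 (SE, n = 2 each; limma adjusted p = 0.989), and its sign changed without mutant array 1 (0.50) and without wild-type array 2 (0.15). The same 3 genes were at background under each of the other levels tried.

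Over the 7 genes tested, 0 rose and 0 fell at an adjusted p under 0.05 in limma's moderated test, and 0 had an unadjusted p under 0.05. In the same fit 3.04% of the 8380 probe sets that passed the filter on dim signals were called, 1.75% higher and 1.29% lower. Read against that share, 0 of 7 does not set these genes apart from others. The log2 differences ran from -0.58 to 0.14, 3 above 0 and 4 below, with a median of -0.02, against a median of 0.00 over all probe sets tested. The groups did not overlap for 2 of the 7, *GATAe* and *gcm2*, both lower in the mutant. Separation of that kind was seen in 46.8% of all tested probe sets, 23.9% with the mutant above wild type and 23.0% with it below. With 2 arrays against 2, an exact permutation test cannot give a two-sided p under 0.333. All tests therefore rest on limma's shared estimate of the spread, and a p that misses the threshold does not show that the groups were alike.

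**Figure D2:**
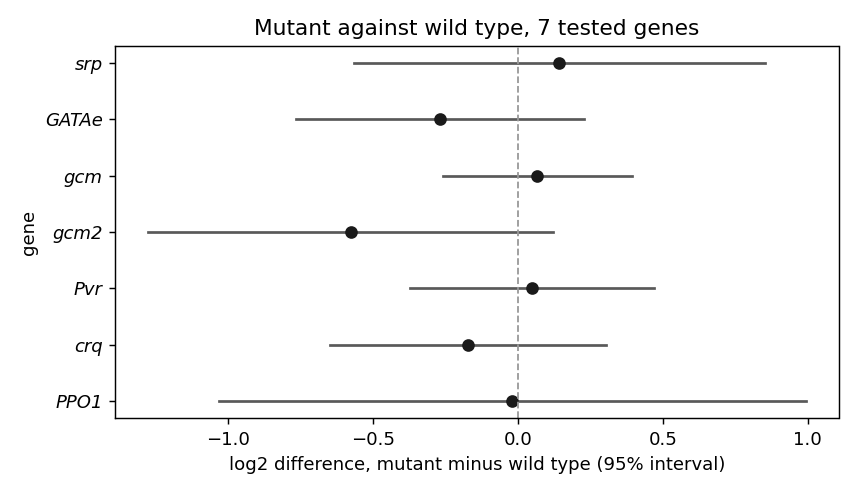
Log2 difference of mutant minus wild type for the 7 genes that were bright enough to be tested, with 95% intervals from limma's moderated fit (n = 2 arrays each). Every interval includes 0; that of *gcm* is the narrowest (-0.26 to 0.40) and that of *PPO1* the widest (-1.03 to 0.99).

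The genes around these 10 were read from 12 lists of related genes, 3 of them markers of other cells, each gene represented by its brightest probe set. Of 95 further genes in the lists, 74 had a named probe set and 58 passed the filter. Among those 58, 0 rose and 2 fell, with 31 differences above 0 and 27 below and a median of 0.05. In the same fit 3.24% of 6855 genes were called, 1.87% higher and 1.37% lower, and the median over all of them was 0.00. Read against the 3.24%, 2 of 58 does not set the related genes apart from others. Both genes that fell encode secreted matrix proteins that embryonic blood cells are known to make. The list counts below include the 10 genes where they belong to a list.

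Of 13 measured genes for matrix and secreted products of blood cells, 8 were tested, 2 fell and 0 rose, with a median of 0.03. Over all 6855 tested genes 1.37% fell and 1.87% rose, and the list was chosen with earlier results of these data known. *Ppn* encodes Papilin, a matrix proteoglycan-like protein. Its signals were 409 and 415 in the mutant, against 839.5 and 805 in wild type, a log2 difference of -0.998 ± 0.14 (SE, n = 2 each; limma adjusted p = 0.00991). *SPARC*, whose product binds collagen in basement membranes, had signals of 167 and 242 in the mutant, against 437 and 510.0 in wild type, a log2 difference of -1.23 ± 0.22 (SE, n = 2 each; limma adjusted p = 0.0270). The groups did not overlap for either gene, as for 47.8% of all tested genes (24.4% with the mutant above wild type and 23.4% with it below). *Ppn* no longer passed when mutant array 1, mutant array 2 or wild-type array 1 was left out (limma adjusted p = 0.0845, 0.0809 and 0.0506), while its log2 difference stayed at -1.03 to -0.97 over the 4 omissions. *SPARC* no longer passed when mutant array 1, wild-type array 1 or wild-type array 2 was left out (log2 differences -0.96, -1.34 and -1.12; limma adjusted p = 0.133, 0.0647 and 0.125). Neither passed without the mean-variance trend (limma adjusted p = 0.0829 for *Ppn* and 0.121 for *SPARC*) or without the filter on dim probe sets (0.110 and 0.202), where the differences are the same by construction.

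Other matrix genes of the list, singled out after their values were seen, did not move as 1 group. *Col4a1* and *vkg*, adjacent genes for the chains of collagen IV, were lower on both mutant arrays than on both wild-type arrays. *Col4a1* had signals of 92.4 and 78.9 in the mutant, against 132 and 118 in wild type, and did not pass (log2 difference -0.55; limma adjusted p = 0.373). *vkg* had 10.7 and 4.89 in the mutant, below background on both arrays, against 94.8 and 81.7 in wild type, above it on both. Its mean log2 signal over the 4 arrays was under the filter, so it was not tested. Set against the background level at the 90th percentile, it was at least 1.63-fold lower in the mutant. With the level at the 95th percentile, wild-type array 2 of *vkg* (81.7) also fell below its level (98.2), so no such fold is given there. *Tig*, the gene for the matrix protein Tiggrin, had 10.4 and 2.42 in the mutant, against 49.2 and 38.9 in wild type, where 1 of the arrays was also below background, and it was not tested either.

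*Pxn*, which encodes the matrix enzyme Peroxidasin, went the other way, with signals of 212 and 124 in the mutant, against 91.2 and 20.8 in wild type. Wild-type array 2, at 20.8, was below its background level, so the log2 difference of 1.90 ± 0.65 (SE, n = 2 each) has no certain size, and it did not pass (limma adjusted p = 0.199). Without wild-type array 2 all remaining arrays were above background and the difference was 0.83 (limma adjusted p = 0.369). It passed without wild-type array 1 (limma adjusted p = 0.0306), but wild type is then the 1 array below background, assumed to vary as the mutant arrays do, and no size is read from it. The 3 laminin chain genes *LanA*, *LanB1* and *LanB2* did not pass, with log2 differences of 0.26, 0.39 and 0.22. Collagen, SPARC and laminin are made by other embryonic tissues too, and how much of each signal came from blood cells was not measured.

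**Figure D3:**
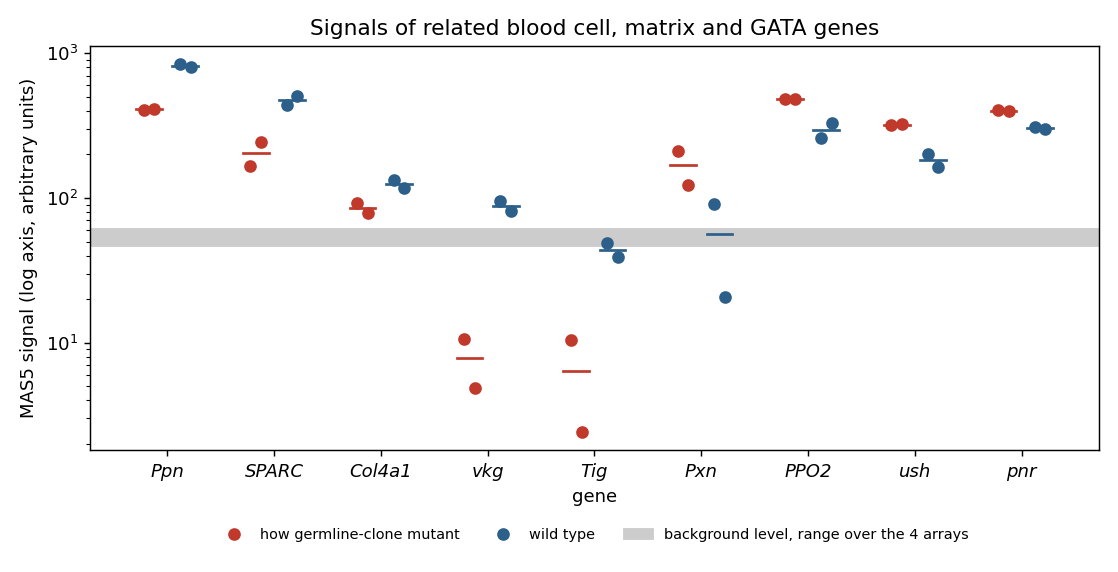
MAS5 signal (log axis, arbitrary units) of 9 related genes, with a point for each array, mutant left of wild type, a bar at each group's mean and the background levels as a grey band. *Ppn* and *SPARC*, the genes that passed the test, lie lower in the mutant and above the band on every array; *vkg* lies under the band in the mutant alone, at 10.7 and 4.89.

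Among 6 GATA factors and partners, all tested, 0 passed, and their median was 0.10. *ush* encodes the zinc-finger cofactor that binds Pannier and Serpent. Its signals were 317 and 322 in the mutant, against 203 and 163 in wild type. The groups did not overlap, as for 47.8% of all tested genes. The log2 difference of 0.82 ± 0.20 (SE, n = 2 each) missed the threshold (limma adjusted p = 0.0816). The other GATA genes *GATAd* and *grn* had differences of 0.04 and 0.05.

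In the list of crystal cell and phenoloxidase genes 4 of 6 measured genes were tested and 0 passed, with a median of 0.17. *PPO2*, the second prophenoloxidase gene of crystal cells, had signals of 483 and 487 in the mutant, against 259 and 332 in wild type. Both mutant arrays lay above both wild-type arrays, and the log2 difference of 0.73 ± 0.18 (SE, n = 2 each) missed the threshold (limma adjusted p = 0.0912). Its second probe set was below background on all 4 arrays, with 14.4 and 33.0 in the mutant, against 12.2 and 52.1 in wild type, so the gene was read from 1 probe set alone. *klu*, a zinc-finger gene, had a log2 difference of 0.37. *PPO3* was under the filter, at 41.0 and 62.0 in the mutant, against 29.6 and 29.4 in wild type.

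None of 8 tested genes of phagocytosis and the blood cell surface passed, 3 above 0 and 5 below, with a median of -0.07. The other 7 of the 15 measured were under the filter, among them *eater* and *NimC3*, both of the Nimrod family. *NimC4*, the family's receptor for dying cells, was bright, at 2057 and 2364 in the mutant, against 2274 and 2605 in wild type, and the groups overlapped. *pes*, a CD36-family relative of *crq*, had signals of 268 and 314 in the mutant, against 425 and 337 in wild type, with a log2 difference of -0.38 (limma adjusted p = 0.379). *Sr-CI*, a scavenger receptor gene, had 70.6 and 66.3 in the mutant, against 53.5 and 42.4 in wild type, where array 2 was below background, and it did not pass (limma adjusted p = 0.560).

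Of the *Pvr* ligands and migration genes 6 were tested and 0 passed, with a median of 0.10. *Pvf3*, a ligand gene, had 117 and 128 in the mutant, against 73.1 and 95.5 in wild type, by its brightest probe set (log2 difference 0.55; limma adjusted p = 0.398). A second ligand gene, *Pvf2*, was below background on all 4 arrays. *Ced-12*, which acts in engulfment and cell migration, had a log2 difference of -0.18.

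The lists of regulators held no call either. Of 11 endoderm and gut regulators, all tested, 0 passed, with a median of 0.05. *fkh*, a forkhead gene of the gut ends, had a log2 difference of 0.42 (limma adjusted p = 0.262), and *hkb*, a gap gene needed for endoderm, had -0.38 (limma adjusted p = 0.316). Of 7 tested blood cell fate regulators 0 passed, with a median of 0.07. Among them *kn*, the EBF factor gene of the head and the lymph gland niche, had 106 and 187 in the mutant, against 76.5 and 70.7 in wild type (log2 difference 0.94; limma adjusted p = 0.220). The difference of *kn* was 1.35 without mutant array 1 and 0.52 without mutant array 2.

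Of 3 tested RUNX factors and partners 0 passed. *Bro* and *Bgb* encode the partner subunits of RUNX proteins. *Bro* lay at the edge of background, with 63.4 and 59.7 in the mutant, against 47.7 and 44.2 in wild type, where array 2 was below its level. *Bgb* was bright, with a log2 difference of 0.08, or -0.10 without mutant array 2. Of 6 tested genes of the *gcm* glial programme 0 passed, with a median of -0.03. The glutamine synthetase gene *Gs2* had a log2 difference of 0.36 (limma adjusted p = 0.334).

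**Figure D4:**
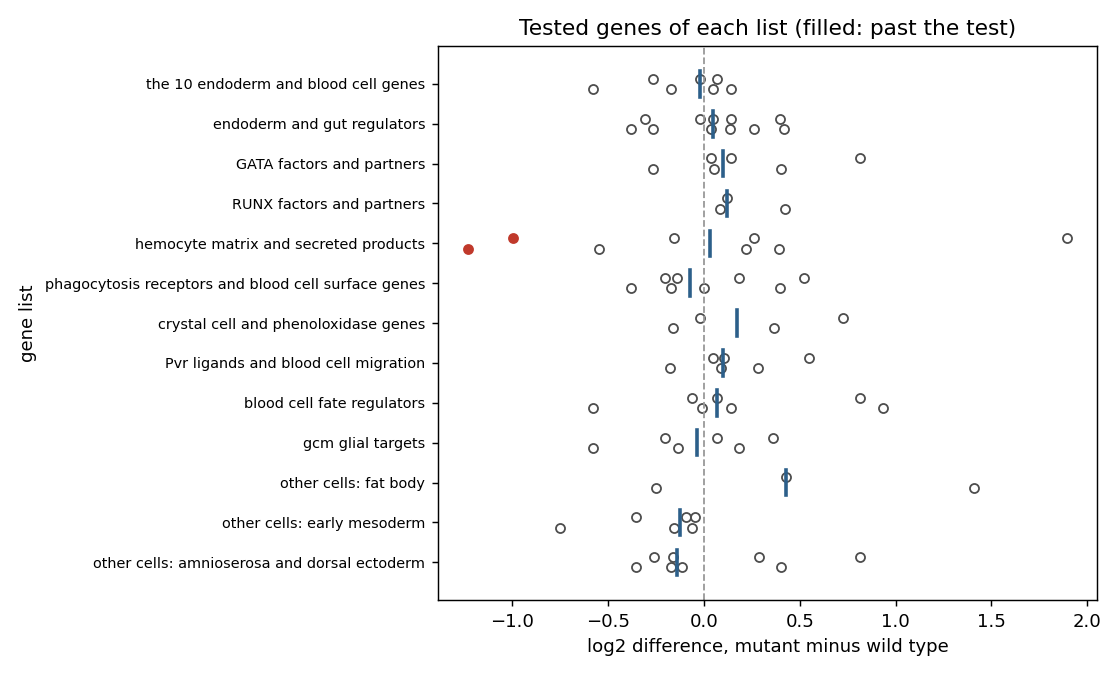
Log2 difference of mutant minus wild type (horizontal axis) for each tested gene of 13 gene sets (rows, the 10 endoderm and blood cell genes on top), by its brightest probe set, with a vertical bar at each median. Filled points passed limma's test; they are *SPARC* (-1.23) and *Ppn* (-0.998), and no other gene in the plot passed.

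Markers of other cells that share these regulators were read in the same way, and their part in the values above was not tested. For early mesoderm 0 of 6 tested genes passed and all 6 lay below 0, with a median of -0.13. Of all 6855 tested genes, 3410 lay below 0. The groups did not overlap for 2 of the 6, against 47.8% of all tested genes. The summed signal of the 6 was 3508 and 3292 in the mutant, against 3620 and 4052 in wild type. Much of that sum was *sna*, with 1948 and 1829 in the mutant, against 2059 and 2154 in wild type. *htl*, the mesodermal FGF receptor gene, had a log2 difference of -0.75 (limma adjusted p = 0.387), and *bin*, a forkhead gene of the visceral mesoderm, had -0.35 (limma adjusted p = 0.442). Both sizes rest on single arrays: *htl* was at -0.30 without wild-type array 1 and -1.20 without wild-type array 2, and *bin* at -0.58 and -0.13. For amnioserosa and dorsal ectoderm 0 of 8 tested genes passed, 3 above 0 and 5 below, with a median of -0.14. The genes with the smallest p, *ush* (log2 difference 0.82) and *pnr* (0.40), described above, were among those above 0. The summed signal of all 10 measured, with *zen* and *zen2* below background throughout, was 6276 and 6608 in the mutant, against 6597 and 7561 in wild type. Much of it came from *Ance* (2133 and 2008, against 2222 and 2258) and *Doc1* (1712 and 1909, against 2069 and 2585).

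For fat body, the other tissue that needs *srp*, 0 of 3 tested genes passed, with a median of 0.43. Of the 3, 2 lay above 0 and 1 below. The 1 below was *Lsp2*, with 105 and 86.2 in the mutant, against 107 and 119 in wild type (log2 difference -0.25). The summed signal of the 3 genes, with *Fbp2*, which was below background throughout, was 409 and 398 in the mutant, against 326 and 308 in wild type. *Fbp1*, the gene for a fat body protein, had 86.3 and 75.4 in the mutant, above background, against 30.4 and 30.4 in wild type, below it on both arrays. Set against the background level at the 90th percentile it was at least 1.51-fold higher in the mutant. At the 95th percentile the wild-type levels were 90.9 and 98.2, above both mutant signals. No rise can be bounded for *Fbp1* at that level. Its wild-type signals were also under the filter, which it passed through its mutant arrays. Its test (limma adjusted p = 0.128) and the median and summed signal of the list are therefore no support for a difference.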

How the data were processed

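The values are MAS5 signals, 1 linear intensity for each probe set on each array, as the authors deposited them; MAS5 is named in the submitters' processing notes, without version or settings, and detection calls were not used here. All 4 arrays had the same mean once the top and bottom 2% were set aside (250.04), so no further scaling was applied. The median gene probe set signal was 75.5 to 82.1. Groups came from the sample titles.

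Before log2, a floor of 3.38 (the 5th percentile) was applied. Of 13966 gene probe sets, the 8380 with a mean log2 signal at or above the 40th percentile (a signal of 39.5) were tested. The test was limma's moderated fit with a trend of variance on mean (version 3.58.1, R 4.3.3), Benjamini-Hochberg adjusted over all of them, without the replicate number as a term. Log2 differences are mutant minus wild type. The labels speak of independent samples, and 2 arrays per group limit the precision.

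Probe sets were named by the platform annotation, updated by Entrez ID to RefSeq; those with several symbols were not named. The level of *how* was not analysed here, so the genotype was not checked.

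The 10 genes and the lists were chosen with earlier results of these data known. All 10 are described; from each list, up to 4 genes called, otherwise the 2 with the smallest p. Others named (the other matrix, Nimrod, laminin and GATA genes, *PPO3*, *Pvf2*, *Lsp2*, *sna*, *Ance* and *Doc1*) were chosen after their values were seen. "At least" folds set the brighter group's mean against the background level. The fit was also run on simulated data drawn with limma's own fitted spread, which cannot test that spread, so no result here rests on it. Alternatives were scaling, floor, filter, trend, robust fit, replicate block, background level and leaving out each array.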

Additional observations from a re-analysis of the deposited data

How the results depend on the processing

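For the 7 tested genes among the 10, the count of calls was 0 under all 12 alternatives, and the genes at background numbered 3 under all 4 other levels or scalings. Of 82 alternative values for the 7 genes none passed, and 6 had the other sign. These were *srp* without wild-type array 2 (-0.38), *Pvr* without mutant array 1 (-0.12) and wild-type array 2 (-0.03), and *PPO1* without mutant array 1 (0.50), without wild-type array 2 (0.15) and with 50 added to each signal (0.01).

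The count of all probe sets called, 255, was 95 without the mean-variance trend, 0 with no filter (1782 at an unadjusted p under 0.05), 825 with the replicate block and 87 to 153 without 1 array (117 and 87 without mutant array 1 or 2, 153 and 140 without wild-type array 1 or 2); the cause was not tested. Calls among the 58 related genes, 2, were 1 without the trend (*Fbp1*), 0 with no filter, 5 with the replicate block (*PPO2*, *Ppn*, *Pxn*, *SPARC*, *ush*) and 0 to 1 without 1 array. With the replicate block the limma adjusted p was 0.0119 for *ush*, 0.00715 for *PPO2* and 0.00319 for *Pxn*. Under the robust fit, both scalings, 50 added and the stricter filter *Ppn* and *SPARC* both passed. Across probe sets, same-numbered arrays deviated from their group means with a correlation of 0.183; no label ties the replicate numbers to a batch, so they were not treated as pairs and the block appears only here. Dim signals limit what can be said of *PPO1*, *lz*, *Hml* and *NimC1*, and 2 arrays per group limit the rest.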

Other observations

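Where a related gene had several probe sets, they did not always run the same way. *Pvf3* had 4 probe sets. Of these, 3 were bright enough to be tested, with log2 differences of 0.55, 0.16 and -0.53, and none passed. *loco*, a glial gene downstream of *gcm*, had log2 differences of 0.18 and -0.47, and *svp*, an orphan nuclear receptor gene, had 0.43 and -0.15, again with no call. The second probe set of *Ppn* was dim but lay on the same side as the first, with 20.2 and 28.2 in the mutant, against 37.1 and 86.0 in wild type. The 10 endoderm and blood cell genes had 1 probe set each, so no such check was possible for them.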
